A study of Mus musculus with 16 samples.

Results

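The genes described here are 10 imprinted genes, *H19*, *Dlk1*, *Meg3*, *Rian*, *Mirg*, *Peg3*, *Mest*, *Plagl1*, *Grb10* and *Kcnq1ot1*, out of 49585 genes counted in each of the 2 deposited tables. They were chosen by name, as genes whose expression from one parental allele is known to depend on DNA methylation, and every one had a row in both tables. Earlier results of these data were known at that choice, so counts and medians over the members are descriptions only. RNA was sequenced from C2C12 cells, muscle precursor cells of the mouse that form myotubes in low serum. The first table held WT and AMPK-KO cells at differentiation d0 (myoblasts) and d8, which the paper names the myotube stage. Each of the 4 groups had 2 libraries. AMPK-KO cells had lost both catalytic subunits of AMP-activated protein kinase after CRISPR targeting of *Prkaa1* and *Prkaa2*. The paper reports that AMPK-KO cells failed to differentiate into myotubes, judged by morphology and myosin heavy chain. The second table held undifferentiated d0 myoblasts that all lacked AMPK and all carried a FLAG-BirA tag with EGFP knocked in at *Tet2*, either without a further change (TET2-WT) or with the phospho-mimicking S97E exchange (TET2-S97E). Each of these 2 genotypes was represented by 2 clones with 2 replicates per clone. The labels do not say which AMPK-KO line each library came from, nor that replicates were separate cultures, so p-values measure the spread between these libraries, and the effect of a genotype and of the line that carries it cannot be told apart.

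An imprinted gene is read mainly from the allele inherited from one parent, because a nearby control region is methylated on only one of the 2 parental copies. TET enzymes oxidize methylated cytosine, which makes imprinted genes a natural place to look when a TET protein or its kinase is altered. *H19* is a maternally expressed noncoding RNA of muscle and fetal tissues that shares enhancers with the paternally expressed growth factor gene *Igf2*. *Peg3*, *Plagl1* and *Mest* are paternally expressed, *Grb10* is maternally expressed in most tissues, *Kcnq1ot1* is a paternal antisense RNA that silences its neighbors, and *Dlk1*, *Meg3*, *Rian* and *Mirg* lie together in one imprinted cluster. Neither methylation nor the parental allele of a transcript can be read from these counts, so all values below are total RNA levels of a gene.

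The members lie on 5 chromosomes (GRCm38). *H19* occupies chr7:142575529-142578143 on the minus strand, *Peg3* chr7:6703892-6730431 on the minus strand, *Plagl1* chr10:13060504-13131694 on the plus strand, and *Mest* chr6:30723547-30748465 on the plus strand. *Kcnq1ot1*, at chr7:143203458-143296549 on the minus strand, is a single exon of 93092 bases within *Kcnq1*. *Grb10* lies at chr11:11930508-12038683, and the 4 clustered genes lie on chromosome 12 between 109452823 and 109749460.

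The sequences at stake are the start regions of the 2 protein-coding members that differed between WT and AMPK-KO cells, and the microRNAs that 2 members carry. The stretch of 146 bases between the start of *Peg3* and that of *Usp29*, its imprinted neighbor on the other strand, holds 5 CG dinucleotides and no annotated exon. The stretch of 109 bases before the first annotated exon of the short *Plagl1* transcripts holds 7. Capitals mark the letters CG, the methylated dinucleotide, which reads the same on both strands. Sequences are from RefSeq (GRCm38.p6), given 5′ to 3′ on the strand of the named gene.
Peg3 start region, chr7:6730432-6730577, minus strand: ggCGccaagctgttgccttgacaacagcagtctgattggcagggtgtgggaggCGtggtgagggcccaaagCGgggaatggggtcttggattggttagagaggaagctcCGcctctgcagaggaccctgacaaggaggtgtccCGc
Plagl1 start region, chr10:13090582-13090690, plus strand: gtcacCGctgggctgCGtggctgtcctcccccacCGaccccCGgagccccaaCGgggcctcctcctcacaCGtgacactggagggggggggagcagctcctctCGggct
In windows of 300 bases around the RefSeq gene starts, from 250 before to 50 after, *Plagl1* held 26 CG and *Peg3* 13, against a median of 7 over 32851 such windows. A share of 16.9% of all windows held at least as many as *Plagl1*, and 37.9% at least as many as *Peg3*. No such window was available for *H19*. Of the other members *Grb10* had the richest window, with 45 CG, a count reached by 1.93% of windows. *Kcnq1ot1* and *Dlk1* had 9 each, and *Rian* had 0. These are counts of letters, and the methylation of these bases was not measured here.

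*H19* is the primary transcript of *Mir675*, and an intron of *Mest* holds *Mir335*. Capitals in the mature sequences mark the seed, bases 2 to 8, which pairs with target RNAs.
mmu-miR-675-5p: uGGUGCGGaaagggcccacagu
mmu-miR-675-3p: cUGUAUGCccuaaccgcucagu
mmu-miR-335-5p: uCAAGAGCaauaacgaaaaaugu
The 3 seeds differ from each other. The libraries were not made for small RNA, and the *Mir675* row was at 0 in all 16 libraries while its host *H19* had 12405 to 251433 counts. In all, 23 microRNA genes lie within members (1 in *H19*, 2 in *Meg3*, 1 in *Mest*, 15 in *Mirg* and 4 in *Rian*), and the highest count of any of them in any library was 2, for *Mir335*. The levels of the mature microRNAs are therefore not known from these files.

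Levels of the members spanned a wide range. On a length-corrected scale (TPM, the share of transcripts after division by exon length), WT d0 myoblasts had 920.5 ± 36.9 TPM (SD, n = 2) of *H19*, 71.6 ± 10.3 of *Peg3*, 7.62 ± 6.79 of *Mest*, 0.197 ± 0.0076 of *Plagl1* and 0.0575 ± 0.0043 of *Kcnq1ot1*. The 5 other members were close to silent. *Dlk1*, which encodes a membrane protein of the Notch ligand family, had 1 count in each of 3 libraries and 0 in the other 13. *Mirg* never had more than 4 counts. *Rian*, the host of a snoRNA cluster, had 6 to 9 counts in the WT libraries, 0 to 13 in AMPK-KO libraries and 0 to 3 in the TET2 table. *Grb10*, an adaptor that dampens insulin and growth factor signaling, had at most 7 counts in the first table and 22 in TET2-S97E clone 2 replicate 1, the only library above 7. *Meg3* had 0 to 7 counts in the first table. In the TET2 table *Meg3* had 0 counts in replicate 1 of all 4 clones and 11, 6, 13 and 25 counts in replicate 2 of TET2-WT clones 1 and 2 and TET2-S97E clones 1 and 2. It was thus read in replicate 2 and not in replicate 1 of every clone. A count of 0 allows up to 3 counts, so low expression of these 5 genes is not excluded, and none of them passed the filter on low counts in either table.

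**Figure D1:**
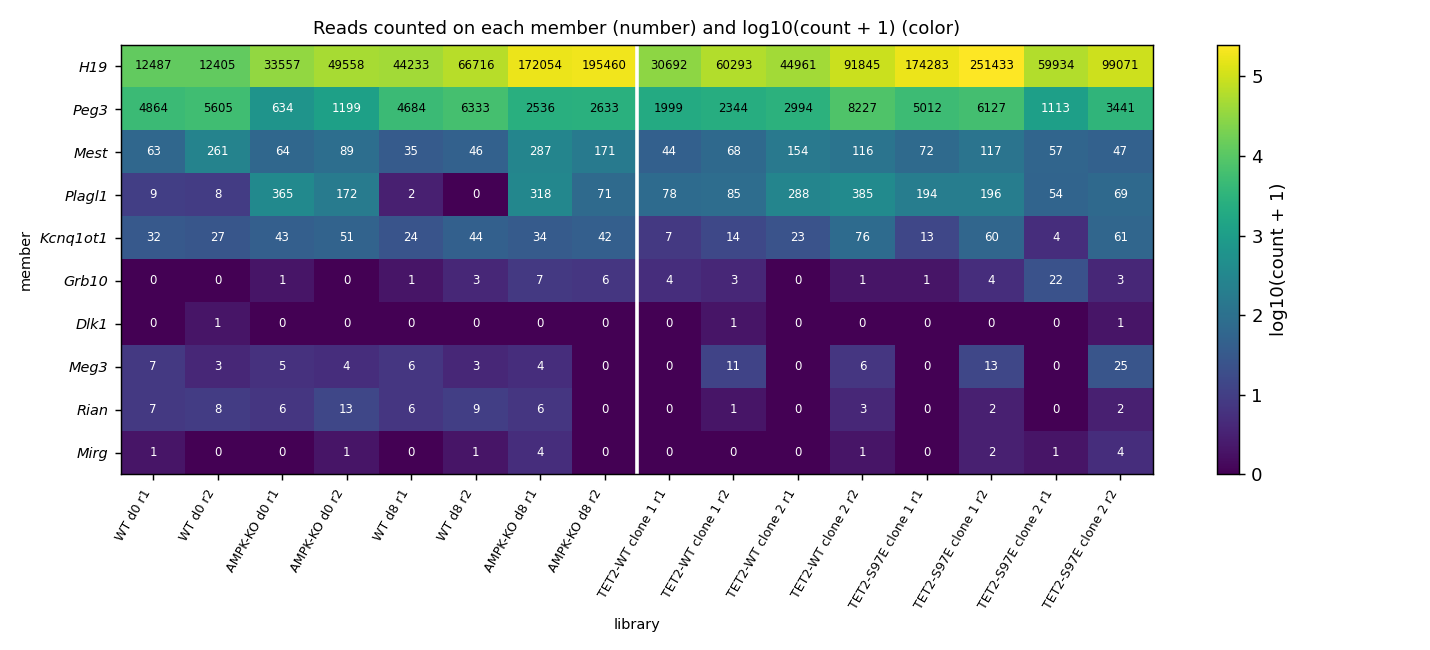
Reads counted on each of the 10 members (rows) in each of the 16 libraries (columns), printed as numbers and colored by log10(count + 1). The white line separates the 2 tables. *H19* had at least 12405 and *Peg3* at least 634 counts in every library, whereas *Dlk1* never exceeded 1 count and *Mirg* never exceeded 4.

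The targeted kinase genes were examined first. *Prkaa1* was at 159 and 159 CPM (counts scaled to a common library size after TMM normalization within a table) in WT d0, 79.7 and 78.0 in AMPK-KO d0, 126 and 125 in WT d8, and 83.3 and 82.5 in AMPK-KO d8. The AMPK-KO libraries were lower than the WT libraries at both days, as was the case for *Prkaa2*, with 1.69 and 1.79 CPM in WT d0 against 0.209 and 0.421 in AMPK-KO d0. In the separately normalized TET2 table *Prkaa1* was at 73.1 to 104 CPM and *Prkaa2* at 0.453 to 1.73 CPM (9 to 53 counts). The highest *Prkaa2* values there, 1.63 CPM in TET2-WT and 1.73 in TET2-S97E, both in clone 2 replicate 2, were near those of WT d0. Transcripts thus remained, as a targeted gene can still be transcribed.

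In AMPK-KO myoblasts, *H19* and *Plagl1* were higher and *Peg3* was lower than in WT myoblasts. Of the 5 members tested, 2 were called higher and 1 lower at an adjusted p under 0.05 (edgeR's quasi-likelihood test, Benjamini-Hochberg adjustment over 14329 genes), where 3.52% of all genes tested were called (0.698% higher, 2.83% lower). The median log2 fold change of the 5 was 0.62, beside -0.0010 over all genes tested. The other 5 members were too low to be tested.

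*H19* was at 602 and 673 CPM in WT d0 and at 1756 and 2317 CPM in AMPK-KO d0. Both knockout libraries lay above both WT libraries, and the groups did not overlap. With 2 libraries a group this is common by chance among unchanged genes. The share of all genes without overlap was not counted, here or below. The mean was 3.20-fold higher (log2 fold change 1.68 ± 0.26 SE, adjusted p = 0.0218). *H19* thus went from position 139 among all genes by TPM in both WT d0 libraries to positions 35 and 20 in the AMPK-KO d0 libraries.

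*Plagl1*, which encodes a zinc finger protein that restrains growth and acts on other imprinted genes, was nearly absent from WT myoblasts, with 9 and 8 counts, and had 365 and 172 counts in AMPK-KO d0. In CPM these were 0.434 and 0.434 against 19.1 and 8.04. The groups did not overlap, although the 2 knockout libraries were far from each other. The ratio of means was 31.3 and the log2 fold change 4.95 ± 0.85 (adjusted p = 0.0348). With 1 library left out the log2 fold change ran from 4.19 to 5.42. *Plagl1* in WT cells also rested on few reads, so the size of this fold is less certain than that of *H19*.

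*Peg3*, a zinc finger gene that is abundant in muscle progenitors, moved the other way. It was at 235 and 304 CPM in WT d0 and at 33.2 and 56.1 CPM in AMPK-KO d0, without overlap. The mean in WT was 6.03-fold that in AMPK-KO (log2 fold change -2.59 ± 0.28, adjusted p = 0.00946).

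*Mest*, a gene of the hydrolase family, and *Kcnq1ot1* did not pass the test at d0. *Mest* was at 3.04 and 14.2 CPM in WT and 3.35 and 4.16 CPM in AMPK-KO, so the groups overlapped and the WT replicates differed more than the groups (log2 fold change -1.19 ± 0.64, adjusted p = 0.349). *Kcnq1ot1* was at 1.54 and 1.46 CPM in WT and 2.25 and 2.38 CPM in AMPK-KO (log2 fold change 0.62 ± 0.41, adjusted p = 0.452), without overlap but with only 27 to 51 reads a library. *Mest* shares 912 exon bases with *Copg2* on the opposite strand and *Kcnq1ot1* shares 121 with *Kcnq1*, and since no source used here says whether counting used strand, reads of these partners cannot be told apart.

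The calls for *H19* and *Plagl1* at d0 rest on every library of that day. With any 1 of the 4 d0 libraries left out, *H19* kept its direction at an edgeR adjusted p of 0.0565 to 0.119. *Plagl1* lost its call without any of the d0 or the WT d8 libraries (edgeR adjusted p 0.0533 to 0.159), and *Peg3* lost it without AMPK-KO d0 replicate 1 alone (edgeR adjusted p = 0.0649).

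**Figure D2:**
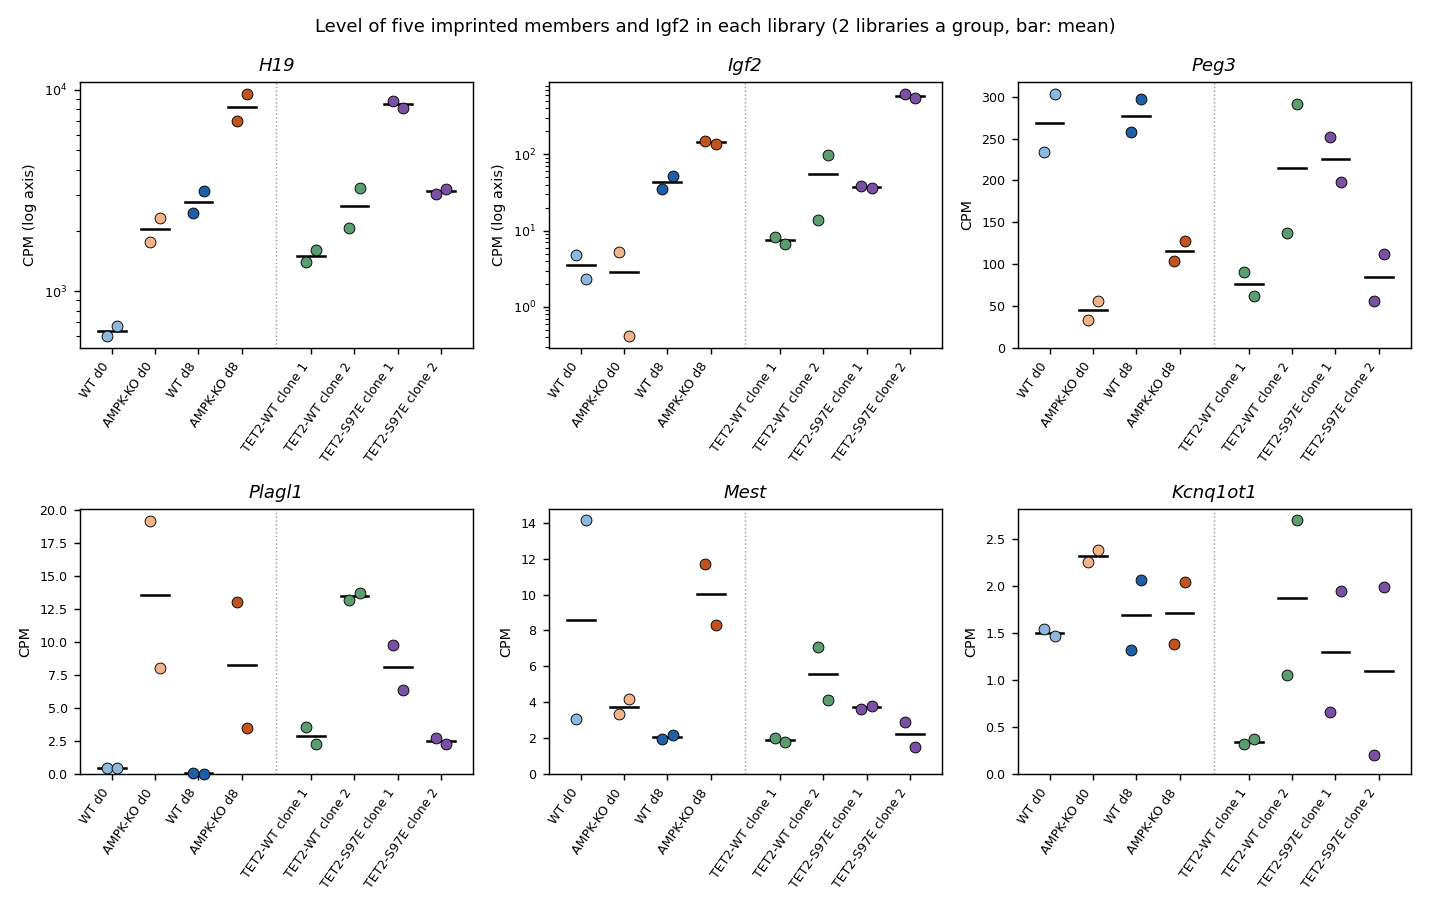
CPM (y axis, logarithmic for *H19* and *Igf2*, linear from 0 for the others) of 5 members and *Igf2* in each library. Each point is 1 library, the bar is the mean of the 2 libraries of a group, and the dotted line separates the 2 separately normalized tables. *H19* lay between 602 and 673 CPM in WT d0 and between 7019 and 9495 in AMPK-KO d8, and *Plagl1* lay under 0.5 CPM in all 4 WT libraries.

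The same 3 members were called at d8, in the same directions, where 5.35% of all genes tested were called (1.36% higher, 3.98% lower). The median log2 fold change of the 5 members tested was 1.57, beside 0.04 over all genes. *H19* was at 2437 and 3130 CPM in WT d8 and at 7019 and 9495 CPM in AMPK-KO d8, where it took 0.698% and 0.934% of all counts and stood at positions 4 and 2 by TPM. The groups did not overlap, and the mean was 2.97-fold higher (log2 fold change 1.57 ± 0.26, adjusted p = 0.0223).

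*Plagl1* had 2 and 0 counts in WT d8 and 318 and 71 in AMPK-KO d8 (8.21 ± 6.73 CPM, SD, n = 2). With the WT group set to the floor of 3 counts a library, the knockout level was at least 53.7-fold higher (edgeR adjusted p = 0.0190). The bound was 22.5-fold without AMPK-KO d8 replicate 1 and 84.8-fold without replicate 2. *Peg3* was at 258 and 297 CPM in WT and 103 and 128 CPM in AMPK-KO, again without overlap (log2 fold change -1.26 ± 0.27, adjusted p = 0.0483). The WT mean was 2.40-fold the AMPK-KO mean, beside 6.03-fold at d0.

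*Mest* was at 1.93 and 2.16 CPM in WT d8 and at 11.7 and 8.31 CPM in AMPK-KO d8. The groups did not overlap, but the difference did not pass the test over all libraries (log2 fold change 2.29 ± 0.65, edgeR adjusted p = 0.100). It passed without either WT d0 library (edgeR adjusted p 0.0168 and 0.0191), when only the d8 libraries were fitted (0.0323), with no filter on low counts (5.7e-06) and in the DESeq2 Wald test (0.0107). *Kcnq1ot1* was at 1.32 and 2.06 CPM against 1.39 and 2.04 on 24 to 44 counts a library (log2 fold change 0.01 ± 0.41).

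At d8, *H19* lost its call without either WT library or AMPK-KO replicate 2 and with only the d8 libraries fitted (edgeR adjusted p = 0.0736 for the last). *Plagl1* lost it without either WT d8 library (edgeR adjusted p 0.0817 and 0.115) and with the d8 libraries alone (0.0513), and *Peg3* without any 1 of 6 libraries (both WT d0 and all 4 d8 libraries; edgeR adjusted p 0.0510 to 0.221).

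*H19* was higher at d8 than at d0 in both genotypes. Between d0 and d8 it rose 4.37-fold in WT (log2 fold change 2.13 ± 0.26, adjusted p = 0.0143) and 4.05-fold in AMPK-KO (2.02 ± 0.26, adjusted p = 0.0209). Comparisons of d8 with d0, named differentiation below, hold everything that differed between the days. The order of the 4 groups was WT d0, AMPK-KO d0, WT d8 and AMPK-KO d8. AMPK-KO d0 at 2037 ± 396 CPM and WT d8 at 2783 ± 490 CPM were neighbors that did not overlap, and the difference between them was not tested. *H19* was the only member called among 5 tested in WT, where 12.4% of genes were called (5.78% higher, 6.58% lower), and it was called together with *Peg3* in AMPK-KO, where 9.76% were (4.81% higher, 4.95% lower). The *H19* call was lost without WT d0 replicate 2 or either WT d8 library (edgeR adjusted p 0.0659 to 0.117) in WT and without either AMPK-KO d0 library in AMPK-KO (edgeR adjusted p 0.0726 and 0.126).

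*Peg3* was at 269 ± 49.0 CPM in WT d0 and 278 ± 27.7 in WT d8 (log2 fold change 0.04 ± 0.27, edgeR adjusted p = 0.935). In AMPK-KO it rose from 44.6 ± 16.2 to 116 ± 17.3 CPM (log2 fold change 1.37 ± 0.28, adjusted p = 0.0319), still below both WT groups. This call was lost without any 1 of 5 libraries (edgeR adjusted p 0.0629 to 0.157). *Mest* had a log2 fold change of -2.07 ± 0.65 in WT (edgeR adjusted p = 0.0850) and of 1.41 ± 0.63 in AMPK-KO (edgeR adjusted p = 0.202). With no filter on low counts *Mest* was called in both (edgeR adjusted p = 4.8e-05 and 0.00996), and in WT so was *Plagl1* (0.00292). The DESeq2 Wald test also called *Mest* in WT (adjusted p = 0.01715).

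The change of the AMPK-KO effect between the days was tested as an interaction, and edgeR called 0 of 14329 genes, with 729 (5.09%) at an unadjusted p under 0.05 and 60 called by the DESeq2 Wald test. Among members the interaction had an unadjusted p of 0.0068 for *Mest* (log2 3.48 ± 0.91, edgeR adjusted p = 0.876) and 0.0109 for *Peg3* (log2 1.33 ± 0.39, edgeR adjusted p = 0.892). For *H19* it was -0.11 ± 0.36 (edgeR adjusted p = 1.00). Neither the smaller *Peg3* difference at d8 nor the opposite signs of *Mest* thus passed the edgeR test of the difference itself over the filtered genes. Both passed when no filter on low counts was applied (edgeR adjusted p = 0.00719 for *Peg3* and 2.5e-06 for *Mest*), where 449 genes were called.

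**Figure D3:**
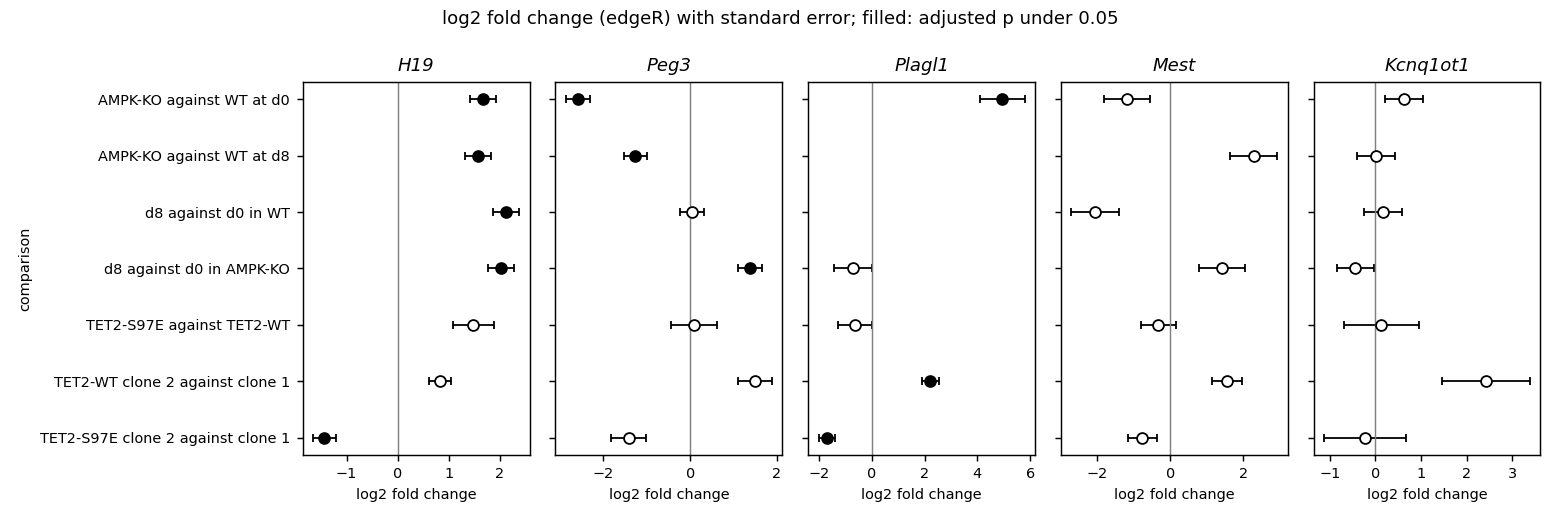
log2 fold change (x axis) of the 5 members tested in 7 comparisons (y axis), with standard errors from the edgeR fit. Filled points had an adjusted p under 0.05, and the 2 *Plagl1* comparisons that involve WT d8, at or under 3 counts, are left out. *H19* lay between 1.57 and 2.13 in the 4 comparisons of the first table, and *Peg3* lay at -2.59 and -1.26 in AMPK-KO against WT.

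Muscle and other cell type markers were set beside these results. All 6 myoblast markers were above 3 counts in the 4 WT libraries and 5 of them in the AMPK-KO libraries, with *Des* the most abundant, and their sum was 2175 and 3228 CPM in WT d0, 1493 and 1918 in AMPK-KO d0, 4555 and 5103 in WT d8 and 2146 and 4484 in AMPK-KO d8. In AMPK-KO cells 2 of the 6 were called lower at d0, where 2.83% of all genes were, and 1 at d8, where 3.98% were. *Pax7*, the factor of muscle stem cells, had 138 to 177 counts in WT libraries and 0 to 2 in AMPK-KO libraries and was called on both days. *Myod1*, which commits cells to muscle, was at 77.5 and 133 CPM in WT d0 and 7.90 and 13.6 in AMPK-KO d0 (log2 fold change -3.29 ± 0.42, adjusted p = 0.0147). Both d0 calls were lost without either AMPK-KO d0 library (edgeR adjusted p 0.0593 to 0.115). The summed level of 10 markers of differentiated muscle was 177 and 128 CPM in WT d0, 24.0 and 15.5 in AMPK-KO d0, 6490 and 10104 in WT d8 and 2214 and 12300.3 in AMPK-KO d8, with *Acta1* the most abundant gene in all but AMPK-KO d0 replicate 2. Of the 10, 1, *Myog*, was called lower in AMPK-KO at d0, where 2.83% of all genes were, and 0 were called at d8. The *Myog* call was lost without either AMPK-KO d0 library. The summed level and *H19* were both higher at d8 than at d0 in each genotype. In AMPK-KO d0 the sum lay below both WT d0 libraries and *H19* above them. The part of differentiation in these *H19* levels was not tested. Of the other cell types, *Lep* and *Cidec* (adipocyte), *Ibsp* (osteoblast), *Tie1* (endothelium) and *Ptprc*, *Hbb-bs* and *Tyrobp* (blood) were at or under 3 counts in all 16 libraries, and the summed adipocyte and osteoblast markers never exceeded 0.408 and 0.860 CPM. The macrophage-associated *Cd68*, in the blood list, was above 3 counts in every library, at 0.845 to 2.76 CPM in the first table and 1.90 to 6.65 CPM in the TET2 table, where it was highest in TET2-S97E clone 1 (6.65 and 4.34 CPM). Of the endothelial markers, *Kdr* was at 0.868 and 0.271 CPM in WT d0, 0.275 and 3.43 in WT d8 and at most 3 counts in all other libraries. *Cdh5* reached 0.284 to 1.39 CPM in 6 TET2 libraries (all but TET2-S97E clone 2) and *Pecam1* at most 8 counts. The part of these cell types in the results was not tested. The 6 fibroblast markers, led by *Col3a1*, which myoblast cultures also express, summed to 2250 to 4687 CPM at d0 and 7165 to 10924 CPM at d8 in the first table and to 9371 to 16022 CPM in the separately normalized TET2 table. Without *Col3a1* the sum was 585 and 295 CPM in WT d0, 112 and 158 in AMPK-KO d0, 493 and 1507 in WT d8 and 90.0 and 113 in AMPK-KO d8, lower in AMPK-KO on both days without overlap. Of 5 tested, 2 had positive and 3 negative log2 fold changes in AMPK-KO at d0 (median -1.02), and 0 were called. At d8, 3 were positive and 2 negative (median 0.25). The 2 negative ones, *Col1a1* and *Lum*, were called lower in AMPK-KO, where 3.98% of all genes were. Both calls were lost when single d8 libraries were left out (*Col1a1* without WT d8 replicate 2 or AMPK-KO d8 replicate 1, *Lum* without any of the 4), and *Col1a1* lost its call also with the d8 libraries alone (edgeR adjusted p = 0.0549). In bulk RNA, fewer cells of a type and less RNA per cell cannot be told apart, and the part of the share of fused cells in these results was not tested.

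TET2-S97E cells were compared with TET2-WT cells to ask what the phospho-mimicking exchange changes in cells without AMPK. *Tet2* itself, the edited gene, was at 34.4 and 22.6 CPM in TET2-WT clone 1 and 58.4 and 56.2 in clone 2, and at 12.9 and 21.9 CPM in TET2-S97E clone 1 and 7.89 and 22.1 in clone 2. Every TET2-S97E library thus lay below every TET2-WT library (log2 fold change -1.40 ± 0.38, edgeR adjusted p = 0.0621; 0.00277 in the DESeq2 Wald test), so the exchange and the *Tet2* RNA level cannot be told apart in these clones.

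None of the 5 members tested was called, where 6.98% of 13433 genes were (3.71% higher, 3.28% lower). At an unadjusted p under 0.05, which 23.5% of all genes reached, there was 1, *H19*, and the DESeq2 Wald test also called 1. The median log2 fold change of the 5 was 0.09, beside 0.01 over all genes.

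*H19* was at 1392 and 1597 CPM in TET2-WT clone 1 and 2060 and 3260 in clone 2, and at 8779 and 8146 CPM in TET2-S97E clone 1 and 3031 and 3228 in clone 2. TET2-S97E clone 1 stood far above the rest, while clone 2 overlapped with replicate 2 of TET2-WT clone 2. The log2 fold change was 1.48 ± 0.41 (edgeR adjusted p = 0.0655). It passed the threshold without TET2-S97E clone 2 (edgeR adjusted p = 0.0106), without TET2-WT clone 2 replicate 2 (0.0373) and without TET2-S97E clone 2 replicate 2 (0.0489), and also with no filter on low counts (0.0398) and in the DESeq2 Wald test (0.00187). Without TET2-S97E clone 1 the log2 fold change was 0.57 ± 0.34 (edgeR adjusted p = 0.385), so most of the fold rested on that clone. With counts summed per clone, 2 clones against 2, edgeR called 0 of all genes.

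*Plagl1*, *Peg3* and *Mest* overlapped between the genotypes. *Plagl1* was at 3.54 and 2.25 CPM in TET2-WT clone 1, 13.2 and 13.7 in clone 2, 9.77 and 6.35 in TET2-S97E clone 1 and 2.73 and 2.25 in clone 2. One clone of each genotype was high and one was low. *Peg3* was at 90.6 and 62.1 CPM, 137 and 292, 252 and 199, and 56.3 and 112 in the same order, and *Mest* at 2.00 and 1.80, 7.05 and 4.12, 3.63 and 3.79, and 2.88 and 1.53. Their log2 fold changes between genotypes were -0.63 ± 0.65, 0.09 ± 0.54 and -0.33 ± 0.48.

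*Kcnq1ot1* differed between replicates of a clone. It was at 0.317 and 0.371 CPM in TET2-WT clone 1, 1.05 and 2.70 in clone 2, 0.655 and 1.94 in TET2-S97E clone 1 and 0.202 and 1.99 in clone 2. Replicate 2 was the higher one in all 4 clones, as for *Meg3*, and replicate 2 had 27394406 to 37790358 total counts where replicate 1 had 19801909 to 21456971. The part of the library in these 2 noncoding RNAs was not tested.

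Clones of one genotype were then compared. Between TET2-WT clones *Plagl1* was the member called of 5 tested, where 0.858% of 14459 genes were (0.463% higher, 0.394% lower), with clone 2 at 4.64 times the level of clone 1 (log2 fold change 2.23 ± 0.31, adjusted p = 0.0223). Its call was lost without either replicate of clone 1 or replicate 2 of clone 2 (edgeR adjusted p 0.0791 to 0.393). Between TET2-S97E clones, where 6.17% of genes were called (3.35% higher, 2.82% lower), *H19* and *Plagl1* were lower in clone 2. The log2 fold changes were -1.44 ± 0.22 for *H19* (adjusted p = 0.00746) and -1.69 ± 0.32 for *Plagl1* (adjusted p = 0.0166), whose call was lost without clone 1 replicate 1 or clone 2 replicate 2 (edgeR adjusted p 0.0864 and 0.0839). All 5 members had positive log2 fold changes between the TET2-WT clones and negative ones between the TET2-S97E clones, with medians of 1.55 and -1.42 beside 0.00 and 0.03 over all genes. With no filter on low counts all 5 were called between the TET2-WT clones, where 1627 of 25592 genes were. *Peg3* then joined *H19* and *Plagl1* between the TET2-S97E clones, where 1680 of 25592 genes were called. Clone numbers carry no order, so these signs describe only which clone was the higher one. Fibroblast markers differed too. Between TET2-WT clones all 5 tested had positive log2 fold changes (median 1.37). Of these *Col1a1* (2.91) and *Lum* (2.88) were called, where 0.463% of all genes were called higher. In TET2-S97E clone 2 *Lum* (3.51) was called higher, and *Dpt* (-3.40) and the endothelial *Cdh5* (-5.46) lower. With some single libraries left out, *Cdh5* and both TET2-WT calls were lost. The part of these markers in the clone differences was not tested.

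Muscle markers differed as well between these undifferentiated cultures. The sum of the 6 myoblast markers was 4750 and 3389 CPM in TET2-S97E clone 1 and 1189 to 1574 CPM in the other 6 libraries, so the clone with the most *H19* also had the most of these markers. *Myod1* was at 7.16 and 10.4 CPM in TET2-WT clone 1, 18.0 and 26.0 in clone 2, 147 and 144 in TET2-S97E clone 1 and 27.6 and 29.1 in clone 2. *Pax7* had 1 to 6 counts in TET2-WT libraries and 42 to 323 in TET2-S97E libraries. *Myod1* and *Pax7* were called higher in TET2-S97E over libraries (edgeR adjusted p = 0.0496 and 0.00770) and not with counts summed per clone (0.429 and 0.264). *Myod1* also lost its call with the replicate block (edgeR adjusted p = 0.0718) and without any 1 of 5 libraries (0.0963 to 0.126). In all, *Myod1* was called in 7 of 18 alternatives. Between the TET2-S97E clones 4 of the 6 were called lower in clone 2, as *H19* was, where 2.82% of all genes were, and *Des* lost its call without clone 1 replicate 1 or clone 2 replicate 2. The part of these markers in the *H19* differences was not tested.

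The differentiated muscle markers were set beside *H19* in the same way. Their sum was 16.6 and 20.3 CPM in TET2-WT clone 1, 45.4 and 324 in clone 2, 6312 and 2195 in TET2-S97E clone 1 and 2256 and 440 in clone 2. Of 9 tested, 7 were called higher in TET2-S97E over the 4 libraries of each genotype, where 3.71% of all genes were. With the replicate block 2 were called, with limma-voom and clone as a random effect 1, and with counts summed per clone 0. With 1 library left out 0 to 8 were called, with 0 without either library of TET2-WT clone 1 or without TET2-WT clone 2 replicate 1. TET2-S97E clone 1, with the most *H19*, held the library with the highest sum, and TET2-S97E clone 2 replicate 1 had 2256 CPM of these markers and 3031 CPM of *H19*. The part of differentiation in the *H19* differences was not tested.

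*Igf2*, the neighbor of *H19* that encodes a fetal growth factor, was called higher at d8 than at d0 in both genotypes and was not called between genotypes. It was at 4.82 and 2.33 CPM in WT d0, 5.29 and 0.421 in AMPK-KO d0, 34.9 and 52.7 in WT d8 and 150 and 139 in AMPK-KO d8. The log2 fold change from d0 to d8 was 3.61 ± 0.81 in WT (adjusted p = 0.0397) and 5.68 ± 0.82 in AMPK-KO (adjusted p = 0.0227), and the calls were lost without any 1 of 5 libraries in WT (edgeR adjusted p 0.05001 to 0.191) and of 4 in AMPK-KO (0.0504 to 0.109). With 1 library left out these log2 fold changes ran from 3.18 to 4.21 in WT and from 4.78 to 8.40 in AMPK-KO. Between genotypes *Igf2* overlapped at d0 and not at d8, where the log2 fold change was 1.72 ± 0.75 (edgeR adjusted p = 0.242). This d8 difference passed only with the d8 libraries fitted alone (edgeR adjusted p = 0.0314) or with no filter on low counts (5.7e-10).

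In the TET2 table *Igf2* and *H19* stood in opposite order between the TET2-S97E clones. *Igf2* was at 37.98 and 35.83 CPM in clone 1 and at 612 and 549 CPM in clone 2, a log2 fold change of 3.98 ± 0.63 (adjusted p = 0.0125), while *H19* was lower in clone 2. This call between clones was lost without either TET2-WT clone 1 library or either TET2-S97E clone 1 library (edgeR adjusted p 0.0512 to 0.0637). There were 231 and 227 *H19* reads for each *Igf2* read in clone 1 and 4.95 and 5.88 in clone 2. In the 4 TET2-WT libraries this ratio was 33.3 to 240. The opposite order was not seen there. The highest *H19* (3260 CPM) and the highest *Igf2* (97.95 CPM) of TET2-WT lay in clone 2 replicate 2, and the lowest of both lay in clone 1. Between genotypes *Igf2* had a log2 fold change of 3.28 ± 1.10 (edgeR adjusted p = 0.138), which ran from 2.68 to 5.03 with 1 library left out and was called without TET2-WT clone 2 replicate 2 (0.0365). Without TET2-S97E clone 2 the log2 fold change of *Igf2* was 0.21 ± 1.00 (edgeR adjusted p = 0.940), so the fold rested on that clone.

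Among 58 other genes listed as imprinted, 38 were tested in the first table and 30 in the comparison of TET2 genotypes, and 13 were at or under 3 counts in all 16 libraries. At d0, 0 were higher and 4 were lower in AMPK-KO cells, where 2.83% of all genes tested were lower. At d8, 2 were higher and 4 were lower, where 1.36% of all genes were higher and 3.98% lower. Their median log2 fold changes, -0.12 and -0.08, lay near those of all genes. Whether each of the 58 is imprinted in muscle cells cannot be read from these counts, so their changes are changes of total RNA.

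*Peg12*, an intronless gene of the *Snrpn* cluster, had 55 and 31 counts in WT d0 and 18 and 13 in WT d8, and 0 counts in all 4 AMPK-KO libraries and all 8 AMPK-null libraries of the TET2 table. WT levels were at least 14.6-fold higher at d0 (edgeR adjusted p = 0.0268) and at least 5.97-fold higher at d8 (edgeR adjusted p = 0.0371), with AMPK-KO at the floor of 3 counts a library. *Sfmbt2*, a polycomb group gene, had 44 and 28 counts in WT d0 and 11 and 37 in WT d8, against 0 or 1 in each AMPK-KO library and 0 in all 8 libraries of the TET2 table. WT levels were at least 12.2-fold higher at d0 (edgeR adjusted p = 0.0334) and at least 8.73-fold higher at d8 (edgeR adjusted p = 0.0294). Both genes were thus read in every WT library and not above 1 count in any of 12 libraries without AMPK, all of which descend from cells made AMPK-null. The calls for *Peg12* and *Sfmbt2* were lost without any 1 of 6 of the 8 libraries on either day (edgeR adjusted p 0.0503 to 0.159 for *Peg12* and 0.0504 to 0.198 for *Sfmbt2*), and the d8 calls also with the d8 libraries alone (0.0682 and 0.0718). Without WT d8 replicate 2 the d8 bound for *Sfmbt2* was 4.52-fold.

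*Ndn*, another gene of the *Snrpn* cluster, was at 1.495 and 1.139 CPM in WT d0, 0.471 and 0.327 in AMPK-KO d0, 1.98 and 1.92 in WT d8 and 0.286 and 0.340 in AMPK-KO d8. Only the d8 difference was called (log2 fold change -2.62 ± 0.47, adjusted p = 0.0278), and it was lost without any 1 of the d8 libraries (edgeR adjusted p 0.0861 to 0.147). In the TET2 table it had 0 counts in 7 libraries and 2 in the other one.

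*Zim1*, which lies beside *Peg3*, was lower in AMPK-KO d0 (20.4 and 10.8 against 2.77 and 3.74 CPM, log2 fold change -2.26 ± 0.35, adjusted p = 0.0224), as *Peg3* was. It also rose from d0 to d8 in AMPK-KO (2.70 ± 0.35, edgeR adjusted p = 0.0209), to 18.8 and 23.7 CPM. The d0 call for *Zim1* was lost without any 1 of 5 libraries (edgeR adjusted p 0.0521 to 0.165) and with the d0 libraries alone (0.0604), and the call with differentiation without either AMPK-KO d0 library (0.0726 and 0.126). *Tspan32*, a tetraspanin gene near *Kcnq1*, was at 6.75 and 7.10 CPM in WT d0 and 31.5 and 48.3 in WT d8 and stayed between 2.34 and 3.02 CPM in the 4 AMPK-KO libraries. It was lower in AMPK-KO at d0 (-1.39 ± 0.28, adjusted p = 0.0487) and at d8 (-3.83 ± 0.28, adjusted p = 0.00398). The d0 call for *Tspan32* was lost without any 1 of the 8 libraries, with the d0 libraries alone (edgeR adjusted p = 0.133) and with the replicate block (0.0516).

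The 2 genes higher at d8 were *Peg10*, a retrotransposon-derived gene, at 17.5 and 17.5 CPM in WT and 131 and 50.1 in AMPK-KO (log2 fold change 2.37 ± 0.43, adjusted p = 0.0324), and *Igf2r*, the receptor that clears IGF2, at 70.6 and 69.7 CPM in WT and 152 and 140 in AMPK-KO (1.06 ± 0.21, adjusted p = 0.0372). *Peg10* lost its call without any 1 of 3 d8 libraries (edgeR adjusted p 0.0676 to 0.181) and with the d8 libraries alone (0.0723), and *Igf2r* without any 1 of 6 libraries (0.0543 to 0.203). *Cdkn1c*, a cell cycle inhibitor silenced in cis by *Kcnq1ot1*, was at 1.78 and 1.19 CPM in WT d0 and 0.262 and 0.374 in AMPK-KO d0 (log2 fold change -2.20 ± 0.67, edgeR adjusted p = 0.128). At d8 it was at 3.25 and 1.97 against 0.897 and 0.291 CPM (-2.10 ± 0.62, edgeR adjusted p = 0.104). The groups did not overlap on either day, which is common by chance with 2 libraries a group, and had 5 to 59 counts a library. With no filter on low counts *Cdkn1c* was called on both days (edgeR adjusted p = 0.0221 at d0 and 0.0140 at d8).

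**Figure D4:**
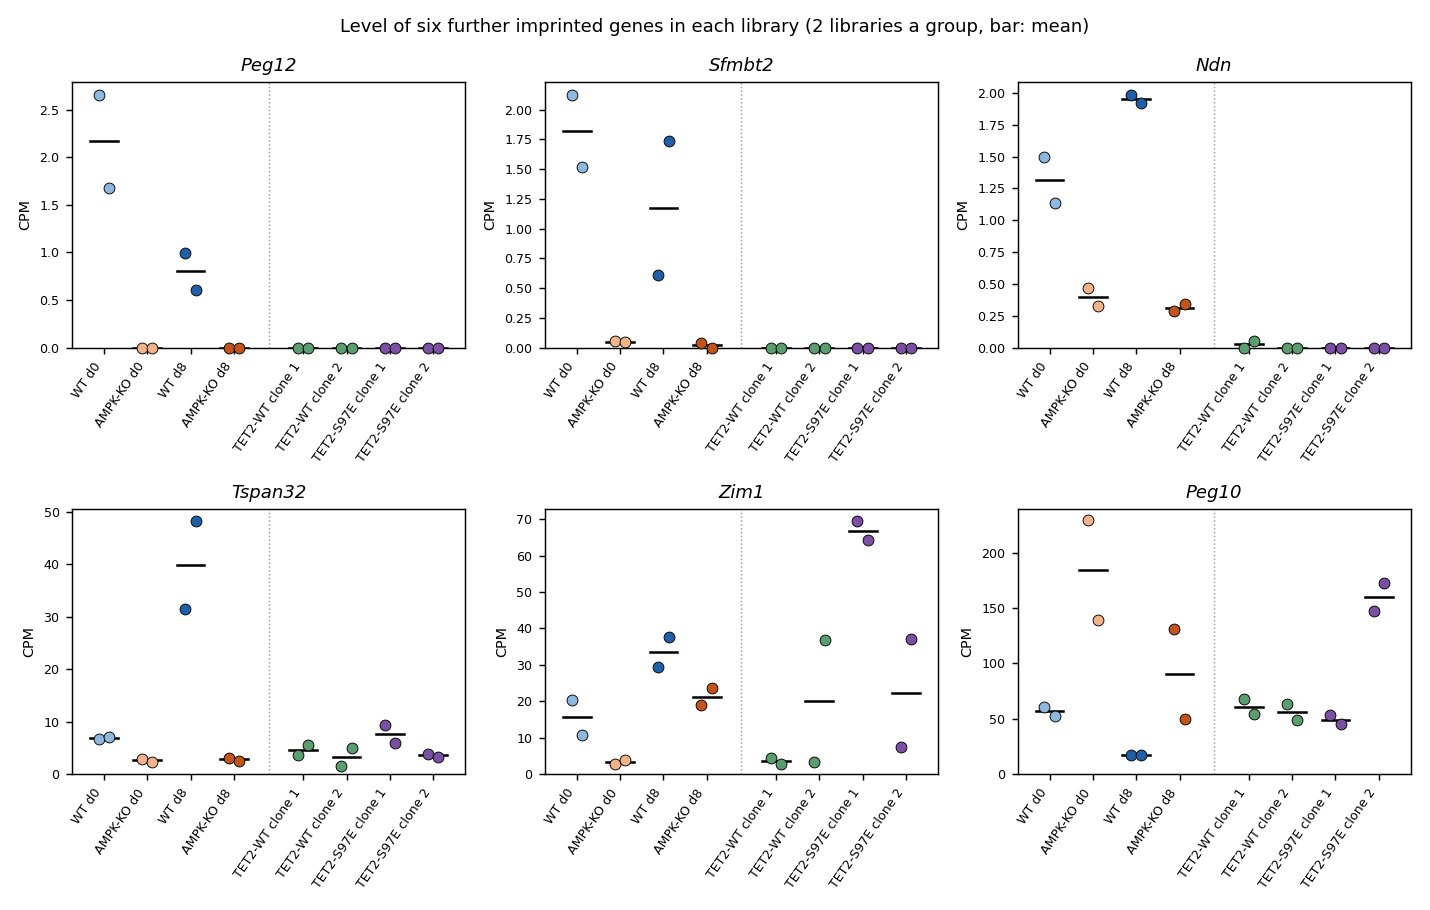
CPM (y axis, linear from 0) of 6 other imprinted genes that were called between WT and AMPK-KO cells, in each library. Points are libraries, bars are means of 2, and the dotted line separates the 2 tables. *Peg12* was at 0 in all 12 libraries without AMPK and *Tspan32* stayed between 2.34 and 3.02 CPM in the 4 AMPK-KO libraries.

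Among the other imprinted genes, *Igf2*, *Tspan32*, *Dcn* and *Trappc9* were called higher at d8 than at d0 in WT cells. Of the 38 tested, 0 were called lower, where 5.78% of all genes rose and 6.58% fell. In AMPK-KO cells *Igf2*, *Zim1*, *Dcn*, *Peg13* and *Trappc9* were called higher at d8 and 0 lower, where 4.81% of all genes were higher and 4.95% lower. *Dcn*, the gene of the matrix proteoglycan decorin, had the log2 fold changes 5.48 ± 0.51 and 4.93 ± 0.52 (adjusted p 0.0143 and 0.0193). In WT the calls for *Tspan32*, *Dcn* and *Trappc9* were lost without WT d0 replicate 2 or either WT d8 library (edgeR adjusted p 0.0591 to 0.158). In AMPK-KO the *Dcn* call was lost without either AMPK-KO d0 library, that for *Peg13* without any 1 of 5 libraries (edgeR adjusted p 0.0649 to 0.161) and that for *Trappc9* without any 1 of 6 (0.0681 to 0.175). Between TET2 genotypes, edgeR called 0 of the 30 tested, where 6.98% of all genes were called. Between the TET2-S97E clones, *Igf2*, *Peg10*, *Sgce*, *Ddc* and *Dcn* were higher and *Usp29* was lower in clone 2, of 34 tested, where 3.35% of all genes were higher and 2.82% lower. *Sgce* lost its call with DESeq2 size factors (edgeR adjusted p = 0.0561) and without any 1 of 6 libraries (0.0992 to 0.226), *Usp29* without any 1 of 5 (0.0546 to 0.133) and *Ddc* without any 1 of 4 (0.0877 to 0.152).

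Of 13 genes that establish or maintain imprints, 10 were tested, and 0 were called between WT and AMPK-KO cells at either day, where 3.52% and 5.35% of all genes were called, so a count of 0 in 10 is near that share. *Dnmt1*, the maintenance DNA methyltransferase, was at 123 and 157 CPM in WT d0 and 200 and 135 in AMPK-KO d0 (log2 fold change 0.26 ± 0.27, edgeR adjusted p = 0.635). It fell from d0 to d8, to 47.5 and 38.8 CPM in WT d8 (-1.69 ± 0.27, edgeR adjusted p = 0.0156) and 74.7 and 51.9 in AMPK-KO d8 (-1.40 ± 0.27, edgeR adjusted p = 0.0288). *Uhrf1*, which brings DNMT1 to newly copied DNA, fell in both genotypes as well. Its log2 fold change was -3.45 ± 0.56 in WT and -2.66 ± 0.56 in AMPK-KO (edgeR adjusted p 0.0181 and 0.0381). With 1 library left out it ran from -3.99 to -3.07 in WT and from -3.73 to -2.05 in AMPK-KO. In WT the calls for *Dnmt1* and *Uhrf1* were lost without WT d0 replicate 2 or either WT d8 library (edgeR adjusted p 0.0785 to 0.140), and in AMPK-KO without any 1 of 5 libraries (0.0588 to 0.193).

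*Trim28*, the corepressor that keeps imprints methylated, fell in WT (-1.01 ± 0.21, adjusted p = 0.0283) and had a log2 fold change of -0.74 ± 0.21 in AMPK-KO (edgeR adjusted p = 0.0706). Its call in WT was lost without any 1 of 4 libraries (edgeR adjusted p 0.0533 to 0.177). *Uhrf1* was the 1 gene of the list called between TET2 genotypes, of 10 tested, where 6.98% of all genes were called. It was at 29.7, 30.2, 15.1 and 16.2 CPM in the TET2-WT libraries and at 67.2, 40.4, 74.7 and 62.0 CPM in the TET2-S97E libraries, without overlap (log2 fold change 1.43 ± 0.27, adjusted p = 0.0202). With counts summed per clone the call was lost (edgeR adjusted p = 0.344), as it was with clones as a random term in limma (adjusted p = 0.0584), without clone 2 of either genotype (0.0599 and 0.0569) and without TET2-WT clone 2 replicate 1 (0.0581).

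The genes whose pattern was most like that of a member were sought over all 16 libraries, with log2(CPM + 1) centered within each table, among 13500 genes tested in both tables. The correlations are descriptions across libraries that share lines and tables. *Peg3* was closest to *Tanc2* (Pearson's r = 0.95), *Zfp704* (0.91) and *Usp29* (0.91), and the 146 bases printed above separate the start of the last from that of *Peg3*. *H19* was closest to *Glrx2* (0.93), *Epb41l5* (0.91) and *Pcdhb18* (0.90), and *Plagl1* to *Zfp981* (0.92), *Gimap9* (0.91) and *Senp2* (0.90). *Mest* had no close match, with *Lpin2* (0.77), *Rbpms* (0.75) and *Lbh* (0.73) nearest. *Kcnq1ot1* was closest to 3 little-known transcripts, *Gm37893* (0.94), *Gm43300* (0.93) and *Mir5125* (0.93). The 5 members were not much like each other, with r between -0.43 (*Peg3* with *Plagl1*) and 0.44 (*Mest* with *Plagl1*).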

How the data were processed

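The authors depleted total RNA of ribosomal RNA, trimmed paired-end reads with Trim Galore 0.4.5, aligned them to GRCm38 with STAR 2.5.3a and counted them per gene with featureCounts 1.5.3 on GENCODE M12. Per the labels and the values, the deposited numbers are raw counts per gene, in 1 table for WT and AMPK-KO cells and 1 for TET2 cells. The strand setting and the handling of multi-mapped reads are not given in the sources used here.

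Names, coordinates and exon lengths were taken from GENCODE M21 (also GRCm38), which held 49326 of 49585 identifiers. Of the 16 libraries, those of the first table held 17883417 to 24663079 counts and those of the second 19801909 to 37790358. Replicates differed beyond sampling noise (chi-square per degree of freedom 29.4 to 107), which does not show that they were separate cultures. Each library was counted as 1 replicate.

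Counts were tested in R 4.3.3 with edgeR 4.0.16 (TMM, filterByExpr, glmQLFit, glmQLFTest), each table on its own, with Benjamini-Hochberg adjustment over all genes tested and a threshold of 0.05. The first table had 1 model of 4 group means, with 4 residual degrees of freedom. TET2 genotypes were fitted with 4 libraries each, and clones in a second model. SE is the standard error of the fit. On simulated counts with 200 genes changed 4-fold, the fit recovered 61.0% at d0 among 14329 genes, with 12 unchanged genes called, and 83.5% between TET2 genotypes among 13433, with 8. Simulated libraries were drawn independently, without a clone effect. The number of unchanged genes called between TET2 genotypes therefore does not cover differences between clones. A group with all libraries at or under 3 counts was set to that floor, and a fold against it is a lower bound that covers counting error only. TPM used merged exon lengths, and levels were computed with pandas 2.3.3.

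The members and all gene lists were chosen with earlier results of these data known. Named genes are the members, other imprinted genes called between genotypes, *Igf2*, *Cdkn1c*, *Dnmt1*, *Uhrf1*, *Trim28*, microRNA and snoRNA genes within members with at least 10 counts (there were 0), and the 3 genes most like each member. *Dcn*, *Trappc9*, *Peg13*, *Sgce* and *Ddc*, named for differentiation or clones, were taken from the calls after these were seen. Alternatives were DESeq2 1.42.0 size factors and Wald test, no filter on low counts, CPM on total counts, a replicate block, 1 library or clone left out, the libraries of 1 day, counts summed per clone and limma 3.58.1 voom with clone as a random effect.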

Additional observations from a re-analysis of the deposited data

Results flagged for a closer look

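In each genotype of the TET2 table, with 4 libraries each, the highest and the lowest library were compared with the others by Dixon's criterion, in 17 groups, of which chance flags about 1 in 20. *Igf2* in TET2-WT clone 2 replicate 2 was at 97.95 CPM, far from the 6.65 to 13.6 CPM of the other 3 TET2-WT libraries. The same library had the most differentiated muscle markers of the 4. *Grb10* in TET2-S97E clone 2 replicate 1 was at 1.112 CPM, on 22 counts, where the other 3 TET2-S97E libraries had 1 to 4 counts. Without TET2-WT clone 2 replicate 2, *Igf2* was called between TET2 genotypes (log2 fold change 5.03, edgeR adjusted p = 0.0365), which it was not with all libraries (3.28, 0.138).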

How the results depend on the processing

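Direction and call were recomputed under each alternative. Genes called with no filter on low counts numbered 2026 at d0 (main 505), 2503 at d8 (766), 3293 for differentiation in WT (1771), 3039 in AMPK-KO (1398), 449 for the interaction (0), 1627 between TET2-WT clones (124) and 1680 between TET2-S97E clones (892). The DESeq2 Wald test called 1393, 1656, 2762, 2532, 60, 894 and 1383 genes in the same order, and 1825 between TET2 genotypes (938). With the d0 libraries alone 330 were called at d0. Between TET2 genotypes, counts summed per clone gave 0, limma-voom 166, and leaving out TET2-WT clone 1 or clone 2 gave 219 and 589. Members called at d8 were 4 with no filter or DESeq2 and 2 with that day alone (main 3). They changed to 3 (no filter) and 2 (DESeq2) from 1 for differentiation in WT, to 2 (*Peg3* and *Mest*) from 0 for the interaction (no filter), to 1 from 0 between TET2 genotypes (no filter, DESeq2, without TET2-S97E clone 2), and to 5 (no filter) and 4 (DESeq2) from 1 between TET2-WT clones.

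With 1 library left out, the other sample of its group is assumed to vary like the other groups. Genes called then ran from 17 to 615 at d0, 104 to 935 at d8, 0 to 2339 for differentiation in WT, 0 to 1775 in AMPK-KO, 0 to 6 for the interaction, 304 to 1045 between TET2 genotypes, 0 to 271 between TET2-WT clones and 468 to 1029 between TET2-S97E clones. Members called ran from 0 to 3 at d0 and at d8, 0 to 2 and 0 to 3 for differentiation in WT and AMPK-KO, 0 to 1 between TET2 genotypes, 0 to 2 between TET2-WT clones and 1 to 3 between TET2-S97E clones.

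Signs turned only for log2 fold changes that were not called. *Kcnq1ot1* at d8 (0.01) was -0.0063 with DESeq2 size factors, -0.0069 with no filter, -0.0085 with DESeq2 and -0.021 with that day alone. Between TET2 genotypes *Kcnq1ot1* was -0.083 with the replicate block, -0.63 without TET2-WT clone 1 and -0.015 without TET2-S97E clone 1, *Peg3* was -0.47 and -0.81 without those clones, and *Mest* and *Plagl1* were 0.65 and 0.88 without TET2-WT clone 2. With 1 library left out, *Igf2* at d0 ran from -3.08 to 0.53, *Mest* at d0 from -1.92 to 0.31, *Kcnq1ot1* at d8 from -0.29 to 0.37, *Peg3* and *Kcnq1ot1* for differentiation in WT from -0.15 to 0.24 and from -0.19 to 0.43, *Plagl1* and *Cdkn1c* in AMPK-KO from -1.97 to 0.032 and from -0.13 to 1.47, and *H19* for the interaction from -0.34 to 0.14. Between TET2 genotypes *Peg3*, *Kcnq1ot1* and *Mest* ran from -0.25 to 0.69, -0.21 to 1.10 and -0.57 to 0.17, and *Kcnq1ot1* between TET2-S97E clones from -2.68 to 0.78. The causes were not tested.

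Replicate numbers were not taken as pairs, since the labels do not say that they mark a shared batch and each comparison has 2 numbers. Deviations of same-numbered libraries correlated at 0.12 to 0.32 among WT and AMPK-KO groups and at -0.02 to 0.51 among TET2 clones. With the replicate block 677 genes and 2 members were called between TET2-WT clones and 1540 genes and 3 members between TET2-S97E clones, and *Mest* and *Peg3* joined the members called there. *Tspan32* at d0 lost its call with the block (edgeR adjusted p = 0.0516). Without TMM factors 78 of 80 mean levels moved by less than 1 SD. With 2 libraries a group and at most 4 counts for *Dlk1* and *Mirg*, depth limits what can be said of the clustered genes on chromosome 12.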
